A study of Ovis aries with 6 samples.

Results

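The genes described here are 10 components of the circadian clock, taken from the table of gene counts by their symbols: the repressors PER1, PER2, PER3, CRY1 and CRY2, the nuclear receptors NR1D1 and NR1D2, the output factors DBP and TEF, and the repressor BHLHE40. All 10 were among the 18865 rows of the table, and all 10 passed the filter on low counts. They were measured by RNA sequencing in sheep mitral valve endothelial cells (VECs) in culture, which form the surface layer of the valve's leaflets. Cells were kept for 24 h in post-MI plasma, drawn from sheep that had a myocardial infarction (3 libraries), or in naive plasma (3 libraries). The labels give no genotype, age or culture for any library. Separate cultures or donors are not stated for replicates. The p-values therefore set the difference between groups only against the scatter of these 6 libraries within groups, which may be technical scatter. All libraries come from 1 time point and the hour of harvest is not given in the sources used here, so neither the phase nor the amplitude of a rhythm was measured.

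The circadian clock is a feedback loop of transcription that runs in most mammalian cells, endothelial cells among them. The activators CLOCK and ARNTL (also called BMAL1) bind E-box sequences and switch on the PER, CRY and NR1D genes. PER and CRY proteins then block the activators, while NR1D1 and NR1D2 repress ARNTL and ROR receptors activate it. In textbook rhythms ARNTL transcripts peak when those of NR1D1 and DBP are at their lowest. Serum and glucocorticoids are known to reset the clocks of cultured cells. Vessel walls carry such clocks, and thrombomodulin (THBD) is among the endothelial genes that they are known to influence.

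Total counts per library were 14858472 to 20672794. Levels are given as CPM, the count scaled to a common library size, after scaling by the trimmed mean of M values (TMM), and group values as means ± SD over 3 libraries. Across all 14326 genes tested, edgeR's quasi-likelihood test at an adjusted p of 0.05 called 0 genes in either direction, and 1244 genes had an unadjusted p under 0.05. By DESeq2's Wald test 153 genes were called higher and 68 lower. Naive replicate 1 stood apart from the other libraries: it held the highest value of the 6 for 28.8% of genes tested and the lowest for 29.2%. All 12 endothelial markers had counts in every library, with summed levels of 3464 to 4731 CPM in the post-MI libraries and 3246 to 3741 CPM in the naive libraries. Of the 12, 9 had positive log2 fold changes, and VWF, EGFL7, CLDN5 and ROBO4 were higher at an unadjusted p under 0.05 in edgeR, against 4.61% of all genes tested. DESeq2 called ROBO4, an endothelial guidance receptor, higher (adjusted p = 0.0452, and 0.491 by edgeR), where it called 1.04% of genes higher. Of 8 leukocyte markers 4 passed the filter, with summed levels over all 8 of 44.3 to 71.4 CPM in post-MI and 59.5 to 72.8 CPM in naive libraries. The general leukocyte marker PTPRC was at 0.643 to 1.33 CPM in post-MI and 0.141 to 0.347 CPM in naive libraries. These were only 12, 12 and 23 counts in post-MI replicates 1, 2 and 3, against 4, 6 and 3 in the naive replicates. PTPRC thus passed the filter on low counts through the post-MI libraries alone. The other tested leukocyte markers CD14, CD68 and LCP1 had log2 fold changes of -0.20, -0.29 and -0.16. Summed levels of 8 fibroblast and interstitial markers were 10330 to 14994 CPM in post-MI and 5589 to 15755 CPM in naive libraries. Those of 6 smooth muscle markers were 4411 to 6073 CPM in post-MI and 918 to 4888 CPM in naive libraries, and naive replicate 1 was lowest for both lists. Of the red cell and platelet markers ALAS2 and PPBP were at a count of 0 in all libraries. The part of these markers in the clock values was not tested. In bulk samples fewer cells of a type and less RNA per cell cannot be told apart.

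The comparison asked whether clock transcripts differ between cells kept with post-MI plasma and with naive plasma. No member passed the test. By edgeR 0 of the 10 were called in either direction, against a background of 0% higher and 0% lower over all genes. DESeq2 called 0 of the 10 as well, against a background of 1.04% higher and 0.464% lower. At an unadjusted p under 0.05 edgeR gave 1 member, PER1, where 8.68% of all genes tested pass, and 530 genes had a smaller p than PER1. The log2 fold change, post-MI over naive, was positive for 7 members and negative for 3, with a median of 0.35. Over all genes tested 47.9% were positive and the median was -0.01. The groups did not overlap in CPM for 2 members that were higher with post-MI plasma, PER1 and NR1D1, against 8.32% of genes tested, and for 0 that were lower, against 7.82%. The spread among replicates was wide for these genes: the median SD within groups was 0.44 log2 CPM over the members and 0.26 over all genes tested.

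**Figure D1:**
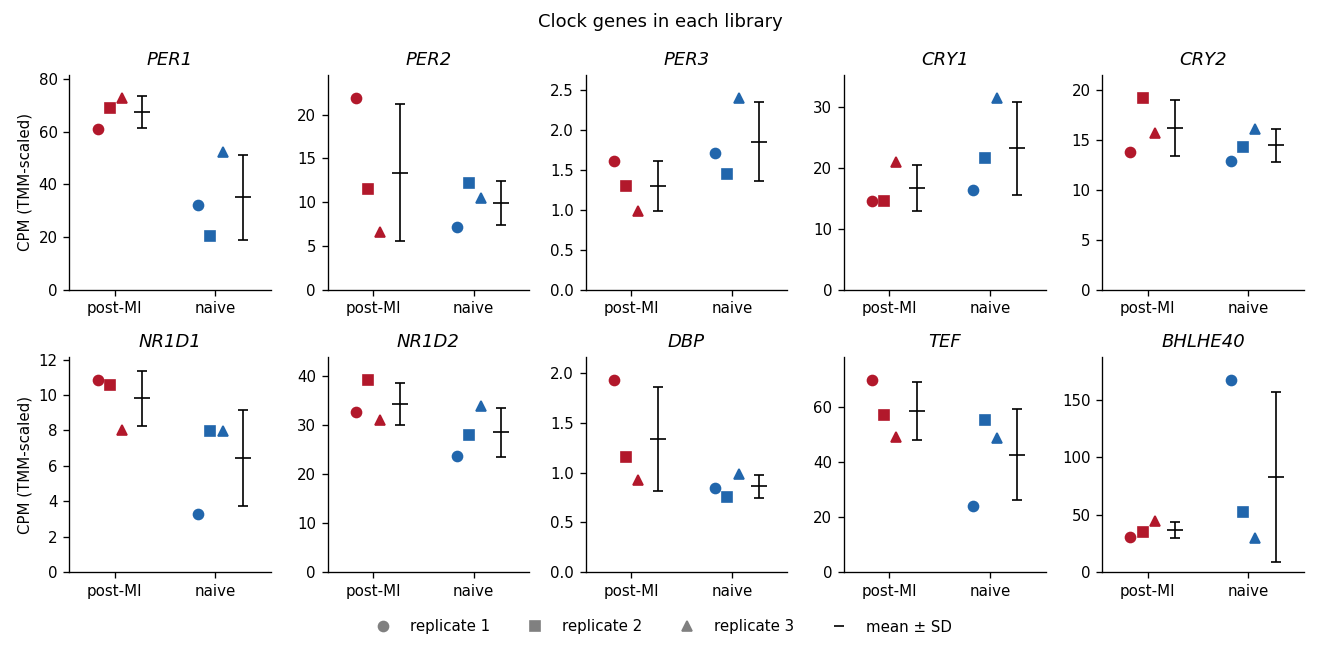
Level of each of the 10 clock genes in each library (vertical axes, TMM-scaled CPM from 0; post-MI libraries in red at left, naive libraries in blue at right; the marker gives the replicate; black bars are mean ± SD, n = 3). The groups separate for PER1 and, by a narrow margin, for NR1D1, and naive replicate 1 lies apart for BHLHE40, NR1D1 and TEF.

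Among the period genes, whose proteins form the repressor complex of the clock, PER1 was higher in every post-MI library than in every naive library. PER1 is also an acute response gene that glucocorticoids and cyclic AMP are known to induce. PER1 was at 60.8, 68.8 and 72.8 CPM in post-MI replicates 1, 2 and 3, against 32.2, 20.4 and 52.4 CPM in naive replicates 1, 2 and 3. The post-MI values lay close together, and the naive values spread more than 2-fold, with replicate 3 nearest to the post-MI libraries. Means were 67.5 ± 6.12 CPM with post-MI and 35.0 ± 16.2 CPM with naive plasma (SD, n = 3 each), a ratio of 1.93. On the log2 scale the difference was 0.95 ± 0.32 (SE; adjusted p = 0.555 by edgeR and 0.177 by DESeq2). Leaving out naive replicates 1, 2 and 3 in turn gave 0.89, 0.67 and 1.36. Without naive replicate 3 edgeR gave an adjusted p of 0.352 and DESeq2 one of 3.34e-04, the single setting in which any member was called. In that DESeq2 fit 0.98% of genes were called higher.

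PER2, whose mutation can advance sleep timing in humans, overlapped between the groups. Its levels were 21.9, 11.5 and 6.58 CPM in post-MI replicates 1, 2 and 3, against 7.16, 12.2 and 10.4 CPM in the naive replicates 1, 2 and 3. Post-MI replicates 1 and 3 were the highest and the lowest of all 6 libraries. On the log2 scale its fold change was 0.43 ± 0.43 (SE; adjusted p = 0.758 by edgeR), and its sign rested on post-MI replicate 1, without which it was -0.13. PER3, which is rhythmic in many tissues but dispensable for the core loop in mice, was weakly detected. It had 30, 19 and 17 counts in post-MI replicates 1, 2 and 3, against 34, 25 and 51 counts in the naive replicates. These were 1.30 ± 0.313 CPM and 1.85 ± 0.491 CPM (SD, n = 3 each), and the groups overlapped. The estimate for PER3, as a log2 fold change, was -0.51 ± 0.35 (SE; adjusted p = 0.655 by edgeR), and -0.28 without naive replicate 3. The 3 period genes thus gave 2 positive and 1 negative estimate, and 1 of the 3 separated the groups.

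The cryptochromes are the strongest repressors of CLOCK and ARNTL. CRY1 was at 14.5, 14.6 and 21.0 CPM in post-MI replicates 1, 2 and 3, against 16.4, 21.7 and 31.5 CPM in the naive replicates. Post-MI replicates 1 and 2 were below all naive libraries, and post-MI replicate 3 lay between naive replicates 1 and 2. The estimated log2 fold change was -0.47 ± 0.27 (SE; adjusted p = 0.615 by edgeR). Without naive replicate 1, the only naive library below post-MI replicate 3, the groups did not overlap and it was -0.66 ± 0.24 (SE; adjusted p = 0.554 by edgeR). Over all genes 1850 were lower without overlap in that setting, against 1121 with no library left out. Without naive replicate 3 it was -0.19. CRY2, the paralog with a weaker repressor action, varied least of the 10 between libraries, with its highest level 1.49 times its lowest. It averaged 16.2 ± 2.78 CPM with post-MI and 14.4 ± 1.61 CPM with naive plasma (SD, n = 3 each), and the groups overlapped. Its log2 fold change was 0.16 ± 0.18 (SE; adjusted p = 0.785 by edgeR), and 0.027 without post-MI replicate 2.

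NR1D1 and NR1D2 encode the heme-binding receptors REV-ERB alpha and beta, which repress ARNTL and tie the clock to metabolism. NR1D1 was at 10.8, 10.6 and 8.02 CPM in post-MI replicates 1, 2 and 3, against 3.30, 7.99 and 7.99 CPM in naive replicates 1, 2 and 3. The groups did not overlap, but post-MI replicate 3 and naive replicates 2 and 3 lay almost level, and the groups overlapped when libraries were scaled by their total counts, a scaling in which 7.43% of genes tested were higher without overlap. Naive replicate 1 was the lowest library. The log2 fold change was 0.61 ± 0.35 (SE; adjusted p = 0.612 by edgeR), and 0.31 without naive replicate 1. In mammals NR1D1 overlaps THRA, a thyroid hormone receptor gene on the opposite strand, and the strand setting of the counting is not given in the sources used here, so reads of the shared part cannot be assigned with certainty. THRA, added after values were seen, gave a log2 value of 0.41 ± 0.25 (SE; adjusted p = 0.624 by edgeR) and was also lowest in naive replicate 1. NR1D2 was at 32.7, 39.1 and 31.1 CPM in the post-MI replicates, against 23.7, 28.0 and 33.8 CPM in the naive replicates. The groups overlapped through naive replicate 3, and the log2 fold change was 0.27 ± 0.17 (SE; adjusted p = 0.642 by edgeR). Leaving out post-MI replicate 2 or naive replicate 1 gave 0.16, and leaving out naive replicate 3 gave 0.41.

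DBP and TEF encode proline- and acid-rich leucine zipper factors that carry the rhythm from the loop to output genes through D-box sequences. DBP was weakly detected, with 36, 17 and 16 counts in post-MI replicates 1, 2 and 3, against 17, 13 and 21 counts in naive replicates 1, 2 and 3. Post-MI replicate 1 had the highest count, and the other 5 libraries overlapped between the groups. The level in post-MI replicate 1 was 1.93 CPM with an exact 95% Poisson interval of 1.35 to 2.67 CPM, and the upper bounds of the naive libraries were 1.29 to 1.51 CPM. These intervals cover counting error only and leave out scatter between libraries. PCR copies of a molecule were not told apart, so the intervals may be too narrow even for counting error. DBP had an estimated log2 fold change of 0.63 ± 0.40 (SE; adjusted p = 0.631 by edgeR), and 0.26 without post-MI replicate 1. TEF was well measured, at 69.5, 56.8 and 48.8 CPM in post-MI replicates 1, 2 and 3, against 23.9, 55.2 and 48.7 CPM in the naive replicates. The groups overlapped, and naive replicate 1 was lowest. TEF had an estimated log2 fold change of 0.45 ± 0.31 (SE; adjusted p = 0.653 by edgeR), and 0.18 without naive replicate 1. HLF, the remaining factor of this family, had 2 to 8 counts in post-MI and 2 to 7 counts in naive libraries and was not tested.

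BHLHE40 (DEC1) binds the same E-boxes as CLOCK and ARNTL and represses them, and it is also a known target of hypoxia signalling. It was at 30.8, 34.6 and 44.7 CPM in post-MI replicates 1, 2 and 3, against 166.7, 52.1 and 29.3 CPM in naive replicates 1, 2 and 3. A single library, naive replicate 1, held the high value, 4.82 times the median of the other 5, and naive replicate 3 was the lowest of all. The log2 fold change was -1.17 ± 0.59 (SE; adjusted p = 0.580 by edgeR and 0.425 by DESeq2). Without naive replicate 1 it was -0.14 ± 0.27 (SE; adjusted p = 0.906 by edgeR). Most of the listed hypoxia target genes had their highest levels in the same library. The summed CPM of 12 such genes was 1346 to 2009 in the post-MI libraries and 6931, 2108 and 2496 in naive replicates 1, 2 and 3. Naive replicate 1 was highest for 9 of the 10 tested, against 28.8% of all genes tested. Among the 9 was BNIP3, a mitophagy receptor, at 181 CPM against 16.9 to 25.4 CPM in the other 5 libraries. The exception, ADM, was lowest in naive replicate 1, at 38.6 CPM against 39.3 to 94.2 CPM in the other 5 libraries. Its log2 fold change was 0.39 ± 0.37 (SE). Of the 10 tested, 9 had negative log2 fold changes, and 6 were lower at an unadjusted p under 0.05 in edgeR, against 4.08% of all genes tested. The groups did not overlap for 3 of the 10, SLC2A1, ENO1 and NDRG1, which were lower with post-MI plasma, against 7.82% of all genes tested. Of these DESeq2 called NDRG1, a stress-responsive gene, lower (adjusted p = 0.0262, and 0.491 by edgeR), where it called 0.464% of genes lower. The log2 fold change of NDRG1 was -1.50 ± 0.42 (SE) in edgeR, and -0.89 without naive replicate 1. For BNIP3 it was -1.98, and -0.29 without naive replicate 1. The part of the hypoxia genes in the BHLHE40 value was not tested. The related repressor BHLHE41 was not analysed here.

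**Figure D2:**
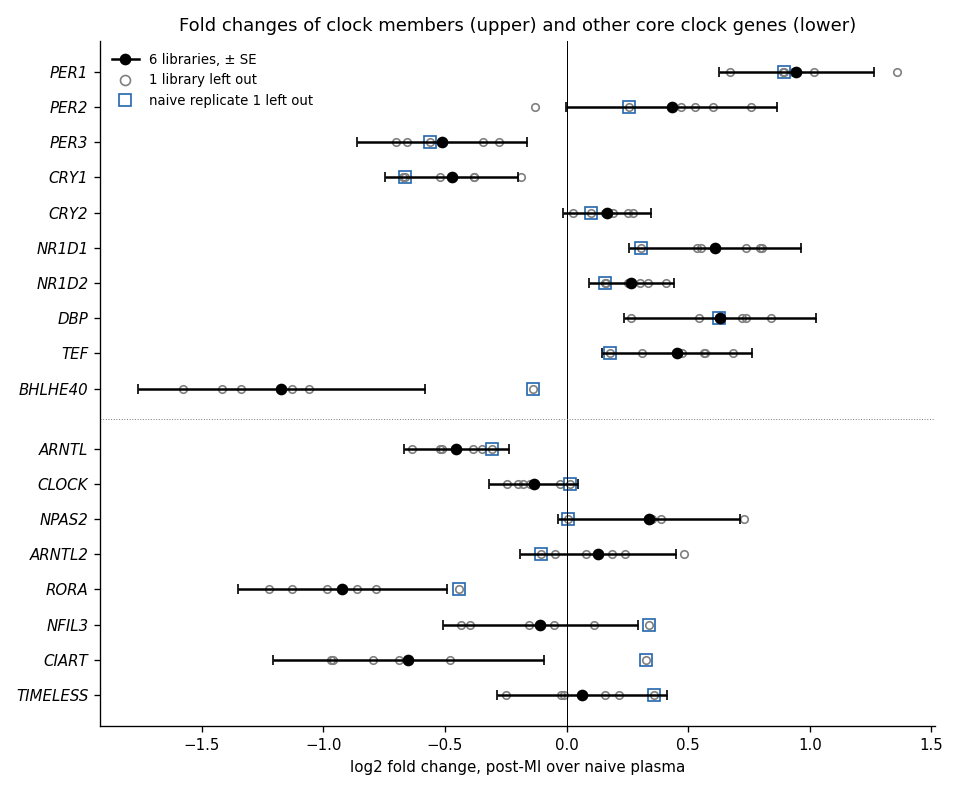
Log2 fold change, post-MI over naive plasma, of the 10 clock members (above the dotted line) and 8 other tested core clock genes (below it). Black points are edgeR estimates from 6 libraries ± SE, grey circles leave out 1 library each, and blue squares leave out naive replicate 1. PER1 stays between 0.67 and 1.36, and BHLHE40 moves to -0.14 and CIART to 0.33 without naive replicate 1.

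Other core clock genes came from a list of activators, ROR receptors and further loop factors. Of the 11 found, 8 were tested, edgeR and DESeq2 called 0 in either direction, and 0 had an unadjusted p under 0.05 in edgeR. Log2 fold changes were positive for 3 and negative for 5, with a median of -0.12, and 0 of the 8 separated the groups. When libraries were scaled by total counts ARNTL did, lower with post-MI plasma, as did 8.65% of genes tested. The activator ARNTL was at 8.63, 8.06 and 11.8 CPM in post-MI replicates 1, 2 and 3, against 15.4, 11.9 and 11.8 CPM in naive replicates 1, 2 and 3. Post-MI replicates 1 and 2 were below all naive libraries and post-MI replicate 3 was level with naive replicates 2 and 3. For ARNTL the estimated log2 fold change was -0.45 ± 0.21 (SE; adjusted p = 0.570 by edgeR), and -0.31 without naive replicate 1. Its partner CLOCK gave -0.13 ± 0.18 (SE).

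NPAS2, which can stand in for CLOCK in some tissues, was at 16.3 to 16.7 CPM in the post-MI libraries, against 6.06, 19.3 and 13.9 CPM in naive replicates 1, 2 and 3. Its log2 fold change was 0.34 ± 0.37 (SE), and 0.0073 without naive replicate 1. ARNTL2, a paralog of ARNTL, gave 0.13 ± 0.32 (SE), and -0.10 without naive replicate 1.

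RORA, the receptor that opposes NR1D1 at the ARNTL promoter, was at 1.98, 3.14 and 2.25 CPM in post-MI replicates 1, 2 and 3, against 7.26, 2.43 and 4.23 CPM in the naive replicates. Its log2 fold change of -0.92 ± 0.43 (SE; adjusted p = 0.570 by edgeR) was -0.44 without naive replicate 1. RORB had 0 counts in every post-MI library, against 0, 0 and 2 counts in the naive replicates. A count of 0 allows up to 3 counts, equal to 0.141 to 0.205 CPM, so RORB could not be compared. CIART, a repressor of CLOCK and ARNTL, was at 4.27 to 6.75 CPM in the post-MI libraries, against 17.6, 4.46 and 4.65 CPM in naive replicates 1, 2 and 3. Its log2 fold change was -0.65 ± 0.56 (SE), and 0.33 without naive replicate 1. NFIL3, which competes with DBP and TEF for D-boxes, gave -0.11 ± 0.40 (SE), and 0.34 without naive replicate 1. TIMELESS, better known for its role in DNA replication forks, gave 0.06 ± 0.35 (SE), and -0.25 without naive replicate 3.

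**Figure D3:**
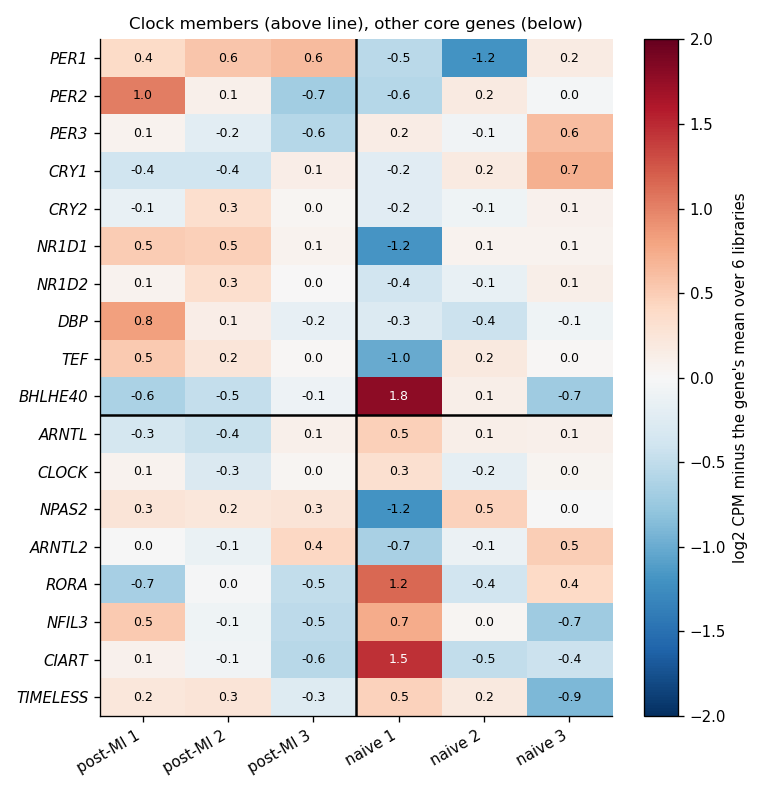
Level of each gene in each library as log2 CPM minus the gene's mean over the 6 libraries (red above, blue below; members above the horizontal line, other core clock genes below it; post-MI libraries left of the vertical line). The darkest red cells are BHLHE40 at 1.8 and CIART at 1.5 in naive replicate 1, and the darkest blue ones, at -1.2, are PER1 in naive replicate 2 and NR1D1 and NPAS2 in naive replicate 1.

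Naive replicate 1 was lowest for 4 of the 10 members (CRY2, NR1D1, NR1D2 and TEF) and highest for 1 (BHLHE40). It was thus at an extreme for 5 of the 10, against 57.9% of all genes tested, a share no higher among the members than over all genes. Of the 8 other core clock genes tested it was highest for 6 and lowest for 2. In it NR1D1 lay 1.18 log2 units below its mean over libraries, and ARNTL lay 0.48, RORA 1.16 and CIART 1.46 above. NPAS2 and ARNTL2 went the other way from ARNTL in this library, at -1.19 and -0.65. Post-MI replicate 1 was highest for 4 members (PER2, NR1D1, DBP and TEF), where it was highest for 17.3% of all genes tested, and lowest for 1 (CRY1). It was at an extreme for 5 members, against 36.0% of all genes tested. Post-MI replicate 3 was highest for PER1 and lowest for PER2 and PER3, so the period genes did not order the libraries alike.

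Ratios within a library do not depend on how libraries are scaled. The log2 ratio of NR1D1 to ARNTL counts was 0.33, 0.39 and -0.55 in post-MI replicates 1, 2 and 3, against -2.21, -0.57 and -0.56 in naive replicates 1, 2 and 3. Post-MI replicates 1 and 2 stood above the rest, naive replicate 1 below, and the remaining libraries were level, so that the groups did not overlap only by the margin between post-MI replicate 3 and naive replicate 3. Means were 0.06 ± 0.53 with post-MI and -1.11 ± 0.95 with naive plasma (SD, n = 3 each), a difference of 1.17 that became 0.62 without naive replicate 1. The log2 ratio of DBP to ARNTL was -2.15, -2.76 and -3.63 in the post-MI replicates, against -4.14, -3.93 and -3.54 in the naive replicates. Here the groups overlapped through post-MI replicate 3. These ratios are descriptions and were not tested.

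**Figure D4:**
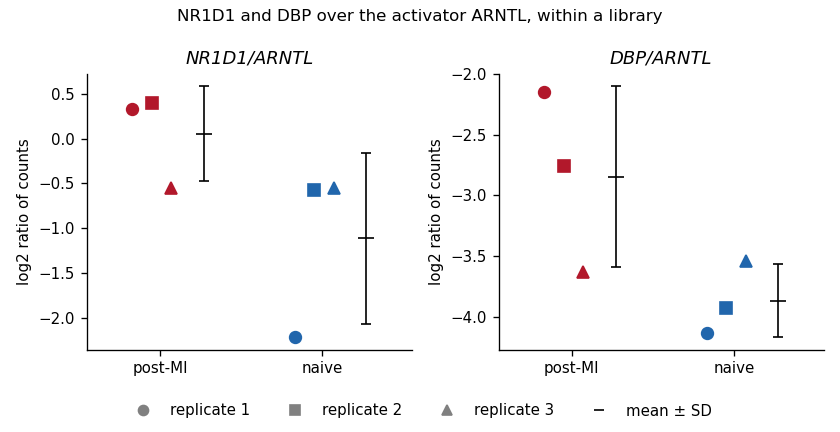
Log2 ratio of counts of NR1D1 (left panel) and DBP (right panel) to the activator ARNTL within each library (post-MI in red at left, naive in blue at right; the marker gives the replicate; black bars are mean ± SD, n = 3). Post-MI replicates 1 and 2 are the highest in both panels, and post-MI replicate 3 is level with naive replicates 2 and 3 at left, narrowly above them, and lies among the naive libraries at right.

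Enzymes and cofactors that act on clock proteins formed a further list. Of 11 tested modifiers edgeR and DESeq2 called 0 and 0 had an unadjusted p under 0.05 in edgeR, log2 fold changes were positive for 6 and negative for 5, and the median was 0.01. The casein kinase CSNK1D, which marks PER proteins for degradation, gave -0.23 ± 0.15 (SE), and -0.10 without naive replicate 1. GSK3B, another clock kinase, gave -0.23 ± 0.15 (SE). The deacetylase HDAC3, through which NR1D1 represses its targets, gave -0.17 ± 0.12 (SE). It was at 60.9 to 70.7 CPM in post-MI and 71.7 to 75.4 CPM in naive libraries. HDAC3 was the single modifier of the 11 whose groups did not overlap, where 7.82% of all genes tested were lower without overlap. Scaled by total counts CSNK1D also separated the groups, lower with post-MI plasma, as did 8.65% of genes tested. USP2, a deubiquitinase with a strong rhythm in many tissues, had 10 to 20 counts in post-MI and 16 to 34 counts in naive libraries.

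Of 7 genes known as outputs of the clock in other cells edgeR and DESeq2 called 0, and 0 had an unadjusted p under 0.05 in edgeR, with 2 positive and 5 negative log2 fold changes and a median of -0.31. Without naive replicate 1 the median was 0.044. THBD, an anticoagulant receptor of endothelium, was at 228, 194 and 117 CPM in post-MI replicates 1, 2 and 3, against 17.2, 153 and 79.6 CPM in the naive replicates. Its groups overlapped, and the log2 fold change was 1.11 ± 0.68 (SE; adjusted p = 0.626 by edgeR). Without naive replicate 1 it was 0.64, and without naive replicate 2 it was 1.89. NAMPT, the enzyme that recycles NAD, gave -0.43 ± 0.23 (SE), and -0.22 without naive replicate 1. ALAS1, which starts heme synthesis, gave -0.31 ± 0.18 (SE), and -0.14 without that library. KLF10 gave -0.64 ± 0.39 (SE). KLF10 was highest in naive replicate 1, at 190 CPM against 62.8 to 90.5 CPM in the other 5 libraries, and gave -0.06 without it.

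Glucocorticoid target genes were listed because PER1 is itself one. Of 6 tested edgeR and DESeq2 called 0, and at an unadjusted p under 0.05 edgeR gave 1 higher and 2 lower, against 4.61% and 4.08% of all genes tested. The groups did not overlap for 2 that were higher and 1 that was lower, against 8.32% and 7.82% of all genes tested. ZBTB16, a zinc finger factor strongly induced by glucocorticoids in many cells, was at 27.1, 38.4 and 39.0 CPM in post-MI replicates 1, 2 and 3, against 2.35, 0.463 and 16.4 CPM in naive replicates 1, 2 and 3. Like PER1 it was higher in 3 of 3 post-MI libraries than in any naive library. Its fold change was 2.43 ± 0.98 on the log2 scale (SE; adjusted p = 0.566 by edgeR). It was 1.89 without naive replicate 2 and 4.59 without naive replicate 3. FKBP5, a receptor cochaperone, was at 89.3 to 91.2 CPM in post-MI and 52.7 to 86.5 CPM in naive libraries, with 0.43 ± 0.20 (SE; adjusted p = 0.566 by edgeR), and 0.29 without naive replicate 2 or 0.67 without naive replicate 1. The other way, the kinase SGK1 was at 132, 105 and 162 CPM in post-MI replicates 1, 2 and 3, against 250.3, 178 and 166 CPM in naive replicates 1, 2 and 3, so its groups did not overlap either. The log2 fold change was -0.57 ± 0.23 for SGK1 and -0.49 ± 0.19 for the phosphatase DUSP1 (SE; adjusted p = 0.566 by edgeR for each), and SGK1 gave -0.36 without naive replicate 1. TSC22D3, a further listed target, overlapped between the groups and gave 0.15 ± 0.25 (SE). The part of these genes in the PER1 value was not tested.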

How the data were processed

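Paired-end reads came from libraries of a strand-specific mRNA kit, per the labels' protocols. The submitters' processing notes name DESeq2 1.26.0, featureCounts 2.0.0, STAR 2.5.2b, SAMtools 1.9, MultiQC 1.5 and FastQC, and the sheep build Oar_v3.1, with no annotation or strand setting. The authors deposited raw counts per gene symbol. The deposited signal of each library is the same counts over a single size factor (100% of counts above 0, tolerance 0.01%), so only the counts were analysed. Total counts were 14858472 to 20672794.

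In R 4.3.3, genes were kept by edgeR 4.0.16 filterByExpr (minimum count 10, minimum total 15), which left 14326, scaled by TMM and tested by the quasi-likelihood test with Benjamini-Hochberg adjustment over all of them. SE is the size of the log2 fold change divided by the root of F. Alternatives were DESeq2 1.42.0 on all rows with a count, limma-voom (limma 3.58.1), other scalings and filters, a replicate block and each library left out. DESeq2 with a block or without single libraries was added after seeing the data. Ratios used counts plus 0.5.

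The members and lists were chosen with earlier results of these data known. Named genes were all members, all other core clock genes with counts, up to 4 genes with the smallest p of each other list, and the 3 genes most like DBP. Genes outside that rule are THRA, KLF9, TSC22D3, BNIP3, ADM, ALAS2 and PPBP. Some genes are not reported here. No sequence is printed.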

Additional observations from a re-analysis of the deposited data

How the results depend on the processing

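Of 200 log2 fold changes of the 10 members under the alternatives, 197 kept their sign and missed the threshold, as did all 10 members by limma-voom and under every other scaling and filter tried. DESeq2 called 153 genes higher and 68 lower over all genes where edgeR called 0 and 0. With a replicate block edgeR called 0 and 0 and DESeq2 151 and 58, with 0 members in each. Between same-numbered libraries, deviations from group means correlated weakly, at 0.15, -0.11 and 0.09 for numbers 1, 2 and 3. Post-MI replicates 1 and 3 correlated best with the naive library of their own number. Post-MI replicate 2 correlated best with naive replicate 3, at 0.24. These values do not decide whether same-numbered libraries were paired. With single libraries left out, edgeR called 0 genes in each fit and DESeq2 fits reached 235 higher and 153 lower, so the range was 0 to 235 and 0 to 153, with 0 to 1 members called higher (PER1). Non-overlapping members numbered 2 to 4 higher and 0 to 1 lower in those fits, among 1478 to 2311 genes higher and 1407 to 2323 lower, and 1 higher when scaled by total counts, where NR1D1 overlapped. Median log2 fold changes with 1 library left out were 0.16 to 0.46 for the members, -0.37 to 0.010 for the other core clock genes and -0.44 to 0.044 for the output genes. The difference of log2 ratios was 0.62 to 1.47 for NR1D1 and 0.67 to 1.42 for DBP. Log2 fold changes that changed sign ran from -0.13 to 0.77 for PER2, -0.25 to 0.013 for CLOCK, -0.11 to 0.49 for ARNTL2, -0.43 to 0.34 for NFIL3, -0.97 to 0.33 for CIART and -0.25 to 0.36 for TIMELESS. The cause was not tested. Depth limits DBP, PER3 and HLF.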

Other observations

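Chosen after its values were seen, ZBTB16 ordered the 6 libraries by CPM exactly as PER1 did. The order ran from naive replicate 2, the lowest, through naive replicates 1 and 3 to post-MI replicates 1, 2 and 3. Of the 14325 other genes tested 11 (0.0768%) had this order, ZBTB16 among them. Any single exact order of 6 libraries can be rare, and ZBTB16 was picked with its values known. The share is therefore no test of a link to PER1. The order also rested on close values of ZBTB16, 38.4 and 39.0 CPM in post-MI replicates 2 and 3. Of the 6 glucocorticoid targets ZBTB16 was the one with it, and KLF9, a further target and clock-regulated factor, was at 15.4, 15.9 and 10.7 CPM in the post-MI replicates, against 8.81, 8.92 and 15.1 CPM in the naive replicates.

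By Pearson's r of log2 CPM over the 6 libraries, the genes most like DBP were KMT2B, a histone methyltransferase (r = 0.990), ELOA, a subunit of the elongin complex (r = 0.987), and MRPL16, a protein of the mitochondrial ribosome (r = 0.985). With DBP at 13 to 36 counts, 93 genes had an r over 0.9. For these 3 genes and DBP post-MI replicate 1 was the highest library. Post-MI replicate 1 held 81.0 CPM of KMT2B, against 61.0 to 69.1 CPM in the other 5 libraries. Mitotic genes, listed as a measure of proliferation, had 10 positive log2 fold changes of 10 and 0 calls by edgeR, with 9 higher at an unadjusted p under 0.05, against 4.61% of all genes tested. DESeq2 called 6 higher, against 1.04% of genes, and the groups did not overlap for 9, against 8.32%. The proliferation marker MKI67 was at 200.1 to 329.6 CPM in post-MI and 36.7 to 110.0 CPM in naive libraries.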
